A study of Homo sapiens with 12 samples.

Results

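Messenger RNA levels of 7 genes were followed, the HOX cofactor genes PBX3, PBX4, MEIS1, MEIS2, MEIS3 and PKNOX1 and the gene of the PBX-interacting protein, PBXIP1. They were chosen by name, with earlier results of these data known, and are 7 of the 12584 genes in the count table used here. HOX proteins bind DNA through a homeodomain that by itself recognises a short, common sequence. PBX proteins and the MEIS and PKNOX proteins carry a homeodomain of the TALE class, which has a loop of extra amino acids. They take part in complexes with each other and with HOX proteins on DNA, and such a complex reads a longer site. PBXIP1, also called HPIP, binds PBX proteins and was described as an inhibitor of the binding of PBX and HOX complexes to DNA.

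The libraries came from A549 and PC9, established lines of human non-small cell lung cancer. Each line had been infected with a lentiviral vector for HOXC6 (A549-HOXC6 and PC9-HOXC6) or with the empty control vector, called NEO, and all 4 groups were kept under neomycin. Each group had 3 libraries, 12 in all, which the labels call independent replicates without saying whether they were separate infections or separate cultures of 1 infected population, so p-values measure the spread between these libraries, which may be technical. The sources used here do not describe selection of single clones, and the lines were cultured in different media.

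The libraries held 1212053 to 3286577 counts, so 3 counts, taken as the floor of detection, corresponded to 0.913 to 2.48 CPM, counts scaled to the total of each library, depending on the library. HOXC6 itself was not analysed here, so the vector labels could not be checked on the gene they name. A549-HOXC6 replicate 3 stood apart. It had counts in 11195 genes against 9714 to 10331 in the other libraries, and its counts differed from those of its partners by 4.26 and 3.11 times the sampling noise (chi-square per degree of freedom), against 1.58 to 2.78 for the other replicate pairs. Of the epithelial markers, 4 were in the table (EPCAM, CDH1, KRT7 and KRT18), and they summed to 7802 to 11682 CPM in every library. EPCAM itself was 5.76 CPM in A549-NEO and 196 in PC9-NEO. Within A549 the epithelial sum was 7802 to 8012 CPM in NEO and 9233 to 11626 in HOXC6 libraries, and its part in the responses below was not tested. Most of it was KRT7, with means of 6516 CPM in A549-NEO and 8221 in A549-HOXC6, and KRT18, with 1170 and 1811. CDH1 went the other way, at 183 and 139 CPM, and EPCAM was at 5.76 and 5.31. Markers of lung lineage (NKX2-1, SFTPB, SFTPC and NAPSA) summed to only 2.16 to 8.56 CPM, and surfactant gene SFTPC was at 0 in all PC9 libraries. Markers of other cell types, a leukocyte gene and 3 collagen genes, summed to 19.1 to 78.1 CPM, nearly all from COL1A1. Because these are bulk libraries, fewer cells of a kind and less RNA per cell cannot be told apart.

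In the GENCODE annotation of GRCh37, PBX3 (ENSG00000167081) lies on chromosome 9 from 128509624 to 128729656, and its canonical transcript has 9 exons. PBX4 (ENSG00000105717) and MEIS3 (ENSG00000105419) both lie on the reverse strand of chromosome 19, PBX4 from 19672516 to 19729502 with 8 exons and MEIS3 from 47906381 to 47922784 with 13. MEIS1 (ENSG00000143995) lies on chromosome 2 from 66660584 to 66801001 with 13 exons. MEIS2 (ENSG00000134138) lies on the reverse strand of chromosome 15 from 37181405 to 37393500 with 12 exons. PKNOX1 (ENSG00000160199), also called PREP1, lies on chromosome 21 from 44394620 to 44454041 with 11 exons. PBXIP1 (ENSG00000163346) lies on the reverse strand of chromosome 1 from 154916552 to 154928599 with 11 exons. The counts cover all exons of each gene. Exons of MEIS1 share 1456 bp and exons of MEIS2 share 431 bp with genes on the opposite strand, and the strand setting of the counting is not given in the sources used here, so reads of those genes and of their antisense partners cannot be told apart. Of the 50-base stretches of the MEIS3 transcript, 7.71% also occur in other genes, among them the processed copies MEIS3P1 and MEIS3P2, so some MEIS3 reads may be assigned to a copy or left out. PBX3, PBX4 and PBXIP1 share no such stretch with another gene.

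The promoters of the 3 genes whose level differed between HOXC6 and NEO libraries in the test below are shown for the motifs that these proteins read. The windows are the 250 bases before the transcription start in RefSeq (GRCh38.p14). Capitals mark matches, on either strand, to ATTA, the core read by most HOX homeodomains, to TGATTNAT, a composite site of PBX with HOX, or to TGACAG, the site of MEIS and PKNOX. The PBX3 window is chr9:125747933-125748182 on the forward strand, the MEIS3 window is chr19:47419528-47419777 and the PBXIP1 window is chr1:154956100-154956349, both on the reverse strand. For MEIS3, RefSeq has 2 windows, and the one printed ends at the start of the gene as annotated on GRCh37. No 2 of the motifs overlap in them.
PBX3: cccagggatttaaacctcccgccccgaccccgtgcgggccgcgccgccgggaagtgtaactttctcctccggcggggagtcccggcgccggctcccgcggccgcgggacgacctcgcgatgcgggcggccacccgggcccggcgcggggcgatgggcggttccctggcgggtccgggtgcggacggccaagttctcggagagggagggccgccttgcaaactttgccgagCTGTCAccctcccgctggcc
MEIS3: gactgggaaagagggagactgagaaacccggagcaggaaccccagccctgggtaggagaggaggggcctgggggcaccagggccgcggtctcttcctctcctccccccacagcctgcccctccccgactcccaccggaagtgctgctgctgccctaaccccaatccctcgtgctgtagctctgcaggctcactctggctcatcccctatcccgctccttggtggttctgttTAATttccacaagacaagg
PBXIP1: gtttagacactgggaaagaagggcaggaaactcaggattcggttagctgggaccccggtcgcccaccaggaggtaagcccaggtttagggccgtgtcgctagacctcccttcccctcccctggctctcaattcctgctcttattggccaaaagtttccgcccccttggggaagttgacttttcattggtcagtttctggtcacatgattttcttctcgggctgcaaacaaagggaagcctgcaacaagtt
The PBX3 window held 1 match to TGACAG, on the opposite strand and starting 20 bases before the start, and the MEIS3 window held 1 match to ATTA, also on the opposite strand and starting 19 bases before it. The PBXIP1 window held none of the 3 letter strings, and neither did the MEIS3 window that is not printed. Of 35116 promoter windows of this length, 47.4% held ATTA, 2.48% held TGATTNAT and 13.03% held TGACAG. A single match to ATTA is thus common, and a match to TGACAG is less so. These shares are over all windows and not over windows of like GC content, and the PBX3 window has 75.6% GC. Among the other 4 genes, TGATTNAT was found only in 1 of the 2 windows of MEIS2, starting 64 bases before the start. A match is a run of letters and not a bound site, and binding was not measured.

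MEIS3 had the highest level per kilobase of transcript in each of the 4 groups, followed by PBXIP1. In A549-NEO the means over 3 libraries were 57.5 CPM per kb for MEIS3, 27.8 for PBXIP1, 13.95 for PBX3, 3.07 for PBX4, 1.77 for PKNOX1, 1.65 for MEIS2 and 0.674 for MEIS1. The libraries of neighbours in this order did not overlap down to PBX4 over PKNOX1, whereas PKNOX1 overlapped MEIS2, and MEIS2 overlapped MEIS1. In PC9-NEO the order began in the same way, with MEIS3 at 40.8 CPM per kb and PBXIP1 at 26.6, but MEIS2 came next at 8.09. PBX3 (2.09), PBX4 (1.83) and PKNOX1 (1.49) followed with overlapping libraries, and MEIS1 was last at 0.0310. Summed over the 6 TALE genes, the level was 78.6 ± 0.772 CPM per kb in A549-NEO and 54.4 ± 0.704 in PC9-NEO (SD, n = 3). MEIS3 made up 73.1% of that sum in A549-NEO and 75.1% in PC9-NEO. The rest differed between the lines. PBX3 held 17.8% and MEIS2 2.099% in A549-NEO, while PBX3 held 3.85% and MEIS2 14.9% in PC9-NEO. Some other TALE genes were not analysed here, so these shares describe the genes measured and not the whole pool of TALE transcripts.

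**Figure D1:**
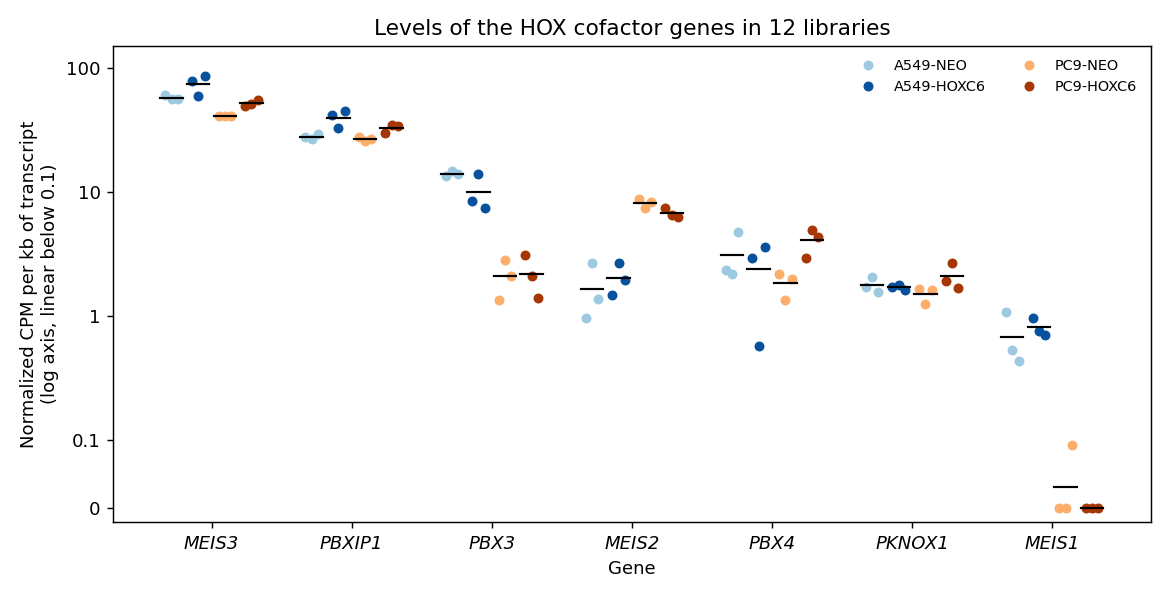
Normalized CPM per kilobase of transcript (vertical log axis, linear below 0.1) for the 7 genes in 12 libraries. Points are libraries, black lines are means of 3 libraries and colours are the 4 groups. MEIS3 was highest in every group, PBX3 was higher in A549 than in PC9, MEIS2 was higher in PC9, and MEIS1 was at 0 in 5 of the 6 PC9 libraries.

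**Figure D2:**
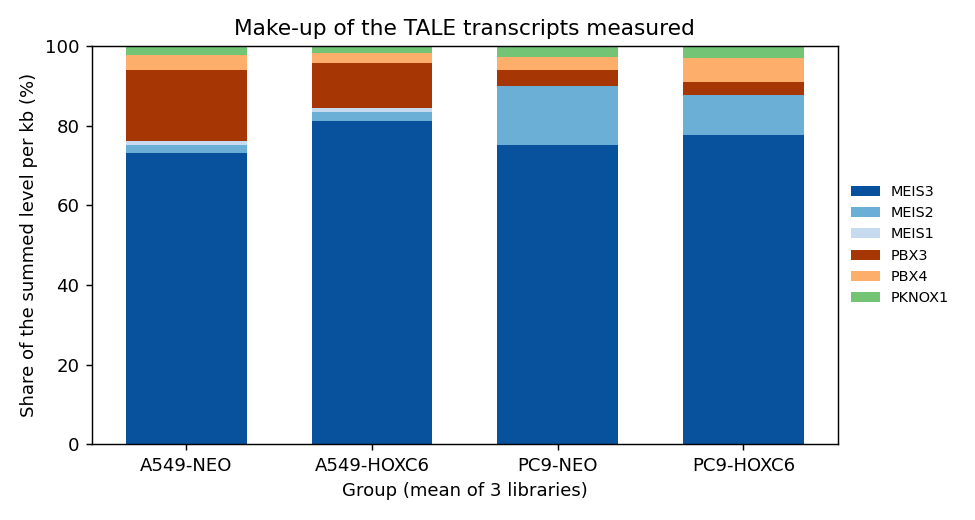
Share (%) of each gene in the summed CPM per kilobase of the 6 TALE genes, as means of 3 libraries in each of 4 groups. MEIS3 held 73.1% to 81.1%, and the next largest share was that of PBX3 in both A549 groups and that of MEIS2 in both PC9 groups.

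Among the NEO libraries, A549 had more PBX3 and PC9 had more MEIS2. PBX3 is a PBX partner of HOX proteins that is often raised in leukaemia with high HOX expression. Its normalized CPM was 37.8, 41.8 and 39.3 in A549-NEO and 3.78, 8.05 and 5.94 in PC9-NEO. Every A549-NEO library lay far above every PC9-NEO library, with a log2 difference of 2.76 (SE 0.239, adjusted p = 8.55e-13, edgeR). MEIS2, a MEIS protein with roles in limb and neural crest development, went the other way, at 5.20, 14.5 and 7.46 CPM in A549-NEO and 47.6, 40.3 and 45.4 in PC9-NEO. The log2 difference of A549-NEO over PC9-NEO was -2.28 (SE 0.235, adjusted p = 6.98e-11, edgeR), and again the lines did not overlap. MEIS3, a less studied member of the same group, was 121, 114 and 113 CPM in A549-NEO against 83.2, 82.6 and 81.9 in PC9-NEO, a log2 difference of 0.53 (SE 0.0984, adjusted p = 9.44e-06, edgeR). PBXIP1 was 89.1 ± 3.66 and 85.3 ± 3.07 CPM (SD, n = 3), which gave a log2 difference of 0.10 (95% interval -0.11 to 0.31) that did not pass and that fell to -0.01 when libraries were scaled by their totals. PKNOX1 was 9.37 ± 1.33 and 7.89 ± 1.17 CPM, with a log2 difference of 0.28 (95% interval -0.35 to 0.91).

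Of the 7 genes, 5 were above the filter on low counts in this comparison and 3 of these passed, meaning an adjusted p under 0.05, 2 of them higher in A549-NEO and 1 lower. Of all 9076 genes tested, 72.7% passed, 36.9% higher and 35.7% lower, and 36.0% were called, meaning that they also had a log2 difference above 1 or below -1, so a difference between the lines was common and 3 of 5 is no more than the background. PBX3 and MEIS2 were called. Of all genes tested, 93.9% had a lower log2 difference than PBX3 and 5.34% had a lower one than MEIS2, which puts both near the ends of the distribution. The median log2 difference was 0.28 over the 5 genes tested and 0.02 over all genes. The cell line and its medium cannot be told apart in these differences.

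The 2 genes left out by the filter were PBX4 and MEIS1. PBX4, a PBX gene known mainly from testis, had few counts in the NEO libraries, 10, 8 and 18 in A549 and 6, 4 and 7 in PC9. MEIS1, a leukaemia oncogene and partner of HOXA9, had 14, 6 and 5 in A549 and 0, 0 and 1 in PC9. With the counts of each group summed and scaled, MEIS1 was 19.6 times higher in A549-NEO, with a 95% interval from 3.20 to 803 that covers counting error only. In the HOXC6 libraries MEIS1 had 12, 4 and 6 counts in A549 and none in PC9, and its level in A549-HOXC6 was at least 8.50-fold that in PC9-HOXC6, taking 3 counts over the whole PC9-HOXC6 group (0.447 CPM) as the floor. Without the filter, edgeR gave MEIS1 an adjusted p of 5.15e-04 between the NEO groups and DESeq2 gave 0.00743. PBX4 did not pass in either (adjusted p = 0.193 and 0.309).

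The second question was how the cofactor genes responded to HOXC6 within each line. In A549, PBXIP1 and MEIS3 rose and PBX3 fell, each by less than a doubling or halving, and PBX4, MEIS2 and PKNOX1 did not pass. PBXIP1 was 88.1, 86.0 and 93.1 CPM in A549-NEO. With HOXC6 it was 132, 104 and 144. All 3 HOXC6 libraries lay above all NEO libraries, with a log2 fold change of 0.49 (SE 0.116, adjusted p = 0.00150, edgeR). MEIS3 was 121, 114 and 113 CPM in A549-NEO. With HOXC6 it was 157, 119 and 174. Replicate 2 of the HOXC6 group was below the highest NEO library, so the groups overlapped, and the log2 fold change was 0.34 (SE 0.114, adjusted p = 0.0176, edgeR). PBX3 was 37.8, 41.8 and 39.3 CPM in A549-NEO. With HOXC6 it was 24.0, 39.4 and 20.9. Replicate 2 again lay within the NEO range while the other 2 HOXC6 libraries were well below it, with a log2 fold change of -0.61 (SE 0.197, adjusted p = 0.0145, edgeR). A549-HOXC6 replicate 2, nearest to NEO for all 3 genes, had the fewest counts of the 12 libraries (1212053).

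Of the 7 genes, 6 were tested in A549 and 3 passed, 2 higher and 1 lower, where 39.6% of all 8771 genes tested passed, 18.9% higher and 20.7% lower. No member was called, where 7.21% of all genes were; 3 members had an unadjusted p under 0.05 in edgeR, and DESeq2 called 0 and passed 2. The median log2 fold change was 0.04 over the 6 genes and 0.00 over all genes. The share of members that passed was therefore near that of all genes. The other 3 genes had wide intervals. MEIS2 was 9.04 ± 4.83 CPM in A549-NEO and 11.1 ± 3.29 in A549-HOXC6 (SD, n = 3), with a log2 fold change of 0.19 (95% interval -0.55 to 0.92). PBX4 was 4.59 ± 2.16 and 3.52 ± 2.36 CPM, with a log2 fold change of -0.26 (-1.27 to 0.75). PKNOX1, which binds PBX proteins as MEIS proteins do, was 9.37 ± 1.33 and 9.03 ± 0.432 CPM, with a log2 fold change of -0.10 (-0.74 to 0.54). MEIS1, below the filter, was 3.08 ± 1.56 and 3.67 ± 0.615 CPM.

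Whether a member passed in A549 rested in part on single libraries. PBXIP1 passed whichever library was left out (log2 fold change 0.43 to 0.58). PBX3 no longer passed without A549-NEO replicate 2 (-0.57, adjusted p = 0.0548), without A549-HOXC6 replicate 1 (-0.52, 0.0744) or without A549-HOXC6 replicate 3, the library that stood apart (-0.46, 0.0624). MEIS3 no longer passed without A549-NEO replicate 2 (0.33, 0.0654), A549-NEO replicate 3 (0.32, 0.0686) or A549-HOXC6 replicate 1 (0.31, 0.0572). Without A549-HOXC6 replicate 3, MEIS3 was at 0.26 (0.0469) and PBXIP1 at 0.43 (0.00256). DESeq2 gave PBX3 a log2 fold change of -0.57 with an adjusted p of 0.0847.

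In PC9, MEIS3 and PBXIP1 rose again and no member fell. MEIS3 was 83.2, 82.6 and 81.9 CPM in PC9-NEO. With HOXC6 it was 98.9, 104 and 112. PBXIP1 was 88.6, 82.6 and 84.8 CPM for PC9-NEO, and the HOXC6 libraries had 95.03, 109.9 and 109. For both genes every HOXC6 library lay above every NEO library. The log2 fold change was 0.36 (SE 0.105, adjusted p = 0.0107, edgeR) for MEIS3 and 0.30 (SE 0.106, adjusted p = 0.0359, edgeR) for PBXIP1. PBX3 was 3.78, 8.05 and 5.94 CPM in PC9-NEO. With HOXC6 it was 8.68, 5.90 and 3.96, so the groups overlapped, and its log2 fold change of -0.01 had a 95% interval from -0.81 to 0.80, which includes the change seen in A549. MEIS2, the second most abundant of the TALE genes in this line, was 44.4 ± 3.74 CPM in PC9-NEO and 36.8 ± 3.26 in PC9-HOXC6, with a log2 fold change of -0.27 (-0.59 to 0.04). PKNOX1 was 7.89 ± 1.17 and 10.996 ± 2.69 CPM, with a log2 fold change of 0.41 (-0.25 to 1.07).

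Of the 7 genes, 5 were tested in PC9 and 2 passed, both higher, where 27.5% of all 8419 genes passed, 13.3% higher and 14.2% lower. No member was called, where 4.53% of all genes were; 2 members had an unadjusted p under 0.05 in edgeR, and DESeq2 passed 0 and called 0. The median log2 fold change was 0.30 over the 5 genes and 0.00 over all genes. MEIS3 no longer passed without PC9-HOXC6 replicate 3 (0.30, adjusted p = 0.0806). PBXIP1 no longer passed without PC9-NEO replicate 2 (0.27, 0.105), PC9-NEO replicate 3 (0.29, 0.0816), PC9-HOXC6 replicate 2 (0.28, 0.0835) or PC9-HOXC6 replicate 3 (0.26, 0.143). Neither passed with DESeq2 (adjusted p = 0.0609 for MEIS3 and 0.140 for PBXIP1) or when libraries were scaled by their totals (0.0517 and 0.139).

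PBX4 in PC9 was below the filter but is described for its counts, which were 6, 4 and 7 in PC9-NEO. With HOXC6 they were 9, 10 and 21. In normalized CPM these were 3.24, 2.01 and 2.97 against 4.34, 7.37 and 6.40, so the groups did not overlap. Without the filter its log2 fold change was 1.11 (SE 0.519, adjusted p = 0.111, edgeR) and with DESeq2 it was 1.13 (adjusted p = 0.239). At this depth a change of PBX4 could not be told from its spread. Summed per kilobase, PBX3 and PBX4 together were 15.6 to 18.6 CPM per kb in A549-NEO and 10.9 to 14.4 in A549-HOXC6, and 3.50 to 4.18 in PC9-NEO and 5.68 to 7.01 in PC9-HOXC6. The summed level of the 6 TALE genes was 91.0 ± 11.7 CPM per kb in A549-HOXC6 and 66.9 ± 2.48 in PC9-HOXC6 (SD, n = 3), and MEIS3 made up 81.1% and 77.5% of it.

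**Figure D3:**
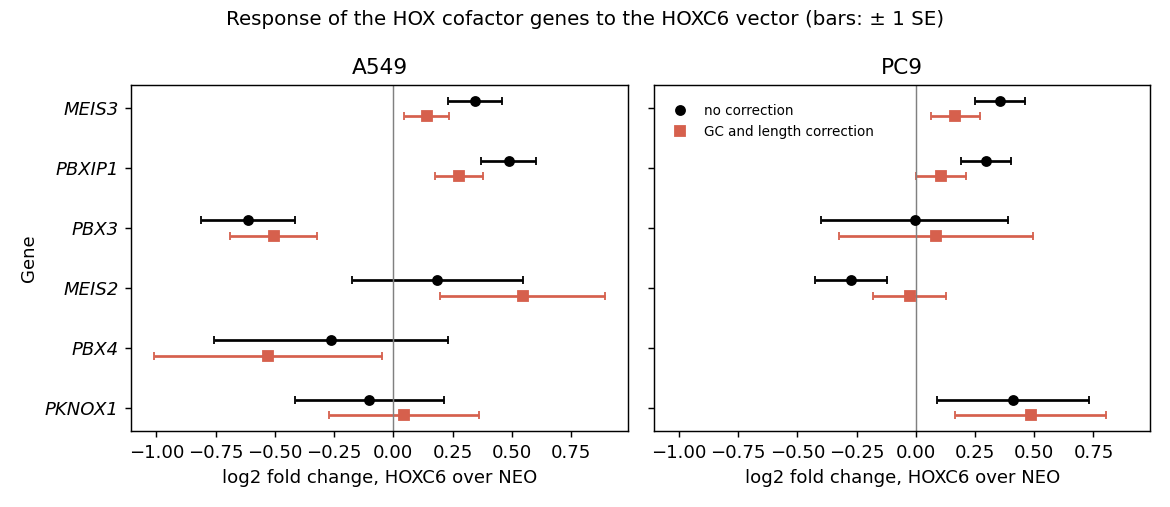
Log2 fold change of HOXC6 over NEO libraries (horizontal axis) in A549 (left) and PC9 (right) for the members tested, with bars of 1 SE. Circles are without and squares with a correction of each library for GC content and length. MEIS3 and PBXIP1 lay above 0 in both lines and moved towards 0 with the correction, and PBX3 in A549 stayed below 0. MEIS2 and PBX4 in A549 moved away from 0, and MEIS2 in PC9 moved towards it.

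None of the 6 members tested over the 12 libraries passed for a difference between the lines in its response to HOXC6 by edgeR, where 19.4% of 9229 genes passed. None had an unadjusted p under 0.05 in edgeR. None passed with DESeq2 either, but DESeq2 gave no adjusted p for PBX4 (-1.45). The largest difference, A549 minus PC9, was that of PBX4, -1.32 (95% interval -2.73 to 0.09, adjusted p = 0.190, edgeR). For PBX3 it was -0.54 (-1.44 to 0.35) and for MEIS2 0.49 (-0.25 to 1.23), so for these low counts a difference of more than a doubling lay within the interval. For MEIS3 the difference was 0.04 (-0.29 to 0.36) and for PBXIP1 0.24 (-0.08 to 0.57). That PBX3 passed in A549 and not in PC9 is thus not a shown difference between the lines.

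The response of a gene to HOXC6 moved with the GC content of its transcript across all genes, and the members lie at different points of that trend. Genes are not independent replicates, and across them Spearman's rho between GC content and response was 0.53 in A549 (8712 genes) and 0.53 in PC9 (8360 genes). In A549 the median log2 fold change was -0.64 in the lowest of 10 equal bins of genes by GC content and 0.21 in the highest, and in PC9 it was -0.48 and 0.18. The transcripts of MEIS3 (65.7% GC), PBXIP1 (59.1%) and PBX4 (58.2%) are GC-rich, and those of MEIS2 (41.9%), MEIS1 (42.4%), PBX3 (44.01%) and PKNOX1 (44.9%) are below the median of 48.7% among genes tested in A549. After each library was corrected for its trend with GC content and transcript length, MEIS3 was at 0.14 (adjusted p = 0.276, edgeR) in A549 and 0.17 (0.273) in PC9 and passed in neither. PBXIP1 was at 0.28 (0.0309) in A549, where it still passed, and at 0.11 (0.528) in PC9, where it did not. PBX3 in A549 was at -0.50 (0.0318) and still passed. The correction did not only make changes smaller. MEIS2 moved from 0.19 to 0.55 in A549 and from -0.27 to -0.03 in PC9. PBX4 in A549 moved from -0.26 to -0.53, and PKNOX1 in PC9 from 0.41 to 0.49. None of these passed. Between the NEO groups the correction left PBX3 at 2.69, MEIS2 at -2.42 and MEIS3 at 0.41, all past the threshold. Whether the trend arose in the cells or in the making of the libraries was not tested.

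**Figure D4:**
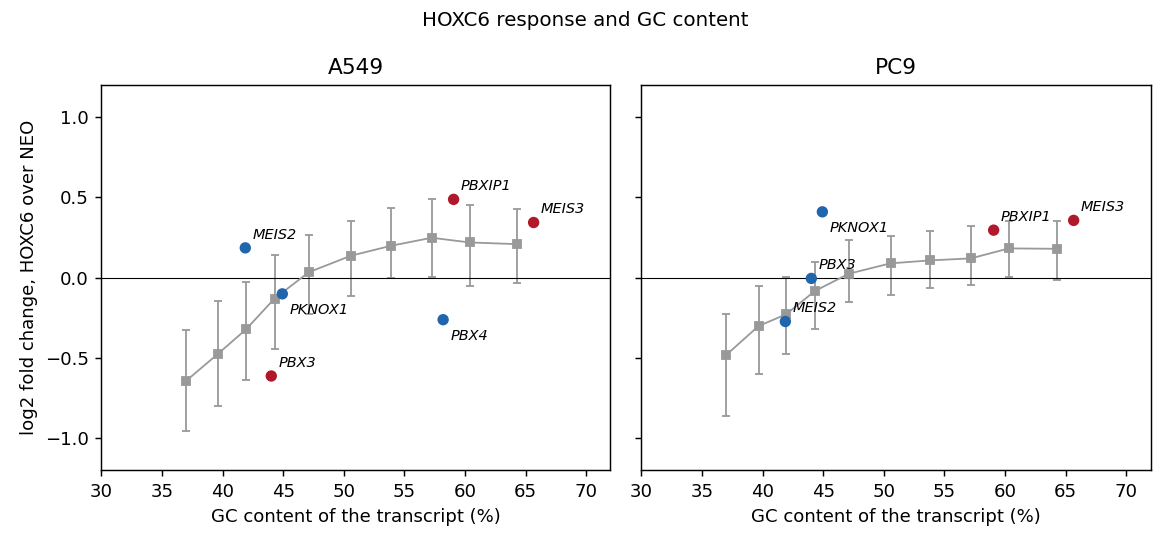
Log2 fold change of HOXC6 over NEO (vertical axis) against GC content of the transcript (horizontal axis, %) in A549 and PC9. Grey squares are medians of all genes split into 10 equal bins by GC content, with bars from the lower to the upper quartile, red points are members that passed and blue points are members that did not. In A549 the grey medians ran from -0.64 to 0.25, PBX3 lay below the median of its own bin (-0.13) and PBXIP1 above that of its own (0.22).

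The genes with the pattern most like that of a member were found by the root mean square difference of log2 CPM, each gene centred on its own mean over the 12 libraries, among 7949 genes. Both sides of this measure share the 12 libraries, so it is a description. For PBX3 they were IFNAR2 (0.317), NPC1 (0.342) and BBS4 (0.345), where the median over all genes was 1.28. For MEIS2 they were THOC3 (0.271), FH (0.314) and FRMD6 (0.320), with a median of 1.09. MEIS3 was most like POFUT1 (0.102), CPSF1 (0.104) and LLGL2 (0.110), with a median of 0.540. PBXIP1 was most like a gene that the annotation used here does not name (ENSG00000108294, 0.0983), UNC45A (0.103) and ARSA (0.110), with a median of 0.505, and PKNOX1 was most like TICAM1 (0.128), CTNNBL1 (0.148) and VAMP3 (0.149), with a median of 0.497.

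The other TALE genes in the table were few and mostly at the floor. Of 12 on the list 5 were in the table, and of these MKX was at 0 in all 12 libraries and PKNOX2 had 3 counts in 1 library and none in the others. TGIF2, a TALE repressor of TGF-beta target genes, was 13.1 ± 1.57 CPM in A549-NEO, 14.7 ± 0.843 in A549-HOXC6, 12.4 ± 3.32 in PC9-NEO and 15.5 ± 5.27 in PC9-HOXC6. None passed between HOXC6 and NEO by edgeR or DESeq2 (1 tested in A549 and 2 in PC9, 0 at an unadjusted p under 0.05). Between the NEO groups IRX6, an Iroquois homeobox gene, had 1, 0 and 1 counts in A549 and 24, 14 and 32 in PC9.

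HOX genes encode the proteins that join these cofactors in complexes. Of 39 HOX genes 25 were in the table. In A549, 14 were tested and 3 passed, 2 higher and 1 lower, with a median log2 fold change of 0.30 over the 14. That is 21.4% of those tested, where 39.6% of all genes passed. HOXB13 was 17.3 ± 1.35 CPM in A549-NEO and 39.8 ± 4.84 in A549-HOXC6 (log2 fold change 1.18, adjusted p = 1.82e-05, edgeR) and was the only HOX gene called in either line, against a background of 7.21% in A549 and 4.53% in PC9. After each library was corrected as above, HOXB13 was at 0.96 (0.95 with the replicate block as well) and passed but was no longer called. HOXC13 was 21.9 ± 2.54 and 39.0 ± 5.35 CPM (0.75, adjusted p = 0.00234, edgeR), and with the correction it was at 0.50 and still passed. HOXA2 was 21.9 ± 5.70 and 13.5 ± 6.40 CPM (-0.82, adjusted p = 0.0218, edgeR). It no longer passed without A549-NEO replicate 2 (-0.63), A549-NEO replicate 3 (-0.80), A549-HOXC6 replicate 1 (-0.77) or A549-HOXC6 replicate 3 (-0.57). With DESeq2 HOXA2 did not pass either (-0.78, adjusted p = 0.106). With the correction HOXA2 was at -1.0004 (adjusted p = 0.00346, edgeR) and so was just called. With the replicate block as well it was at -0.94, and passed but was not called. In PC9, 8 HOX genes were tested and none passed by edgeR or DESeq2, with 1 at an unadjusted p under 0.05 and a median of 0.07, and HOXC13 was at 55.5 ± 9.81 and 55.5 ± 8.62 CPM.

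Co-regulators that PBX, MEIS and HOX complexes recruit include deacetylases and the histone methyltransferase KMT2A with its partners. Of 21 on the list 16 were in the table and all 16 were tested. In A549, 4 rose and 3 fell, with a median log2 fold change of 0.03, and in PC9, 2 rose and 2 fell, with a median of 0.01. Both shares, 43.8% and 25.0%, were near those of all genes given above. KMT2A, which methylates histone H3 at HOX loci, was 118 ± 11.7 CPM in A549-NEO and 59.8 ± 11.2 in A549-HOXC6 (log2 fold change -1.01, adjusted p = 1.39e-06, edgeR), and 142 ± 6.002 and 122 ± 12.8 CPM in PC9 (-0.22, adjusted p = 0.0844, edgeR). PSIP1, which tethers KMT2A to chromatin, fell in both lines, by 0.66 on the log2 scale in A549 and by 0.89 in PC9. NCOR1, a corepressor that binds PBX, fell by 0.41 and 0.34, and HDAC1, a histone deacetylase, rose by 0.74 and 0.20. Once libraries were corrected for GC content and length as above, KMT2A in A549 was at -0.80 and PSIP1 in PC9 at -0.57, and both still passed, whereas PSIP1 (-0.24) and NCOR1 (-0.17) no longer passed in A549, and NCOR1 (-0.17) and HDAC1 (0.10) no longer passed in PC9. In PC9, HDAC1 also no longer passed without PC9-NEO replicate 2 (0.18), PC9-HOXC6 replicate 1 (0.21) or PC9-HOXC6 replicate 2 (0.18), with DESeq2 (0.20, adjusted p = 0.0765) or with scaling by library totals (0.11, 0.232), and KMT2A passed only without PC9-HOXC6 replicate 2 (-0.28) or with scaling by library totals (-0.31).

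Genes known from other settings as targets of HOX or TALE proteins were 10 in the table, of which 6 were tested. In A549, 1 rose and 3 fell, with a median log2 fold change of -0.53, and in PC9, 1 rose and 2 fell, with a median of 0.11. So 4 of 6 passed in A549 and 3 of 6 in PC9, where 39.6% and 27.5% of all genes did, and 6 genes are few. HIF1A, the hypoxia-regulated transcription factor, was 314 ± 4.01 CPM in A549-NEO and 125 ± 19.6 in A549-HOXC6 (log2 fold change -1.37, adjusted p = 8.48e-11, edgeR), and 166 ± 4.55 and 90.2 ± 9.98 CPM in PC9 (-0.90, adjusted p = 4.21e-08). Its transcript has 39.4% GC, and with the correction it was at -0.91 in A549, no longer called, and at -0.55 in PC9, and still passed in both. PLAU, the urokinase gene, was 812 ± 25.2 and 384 ± 25.0 CPM in A549 (-1.12, adjusted p = 1.03e-11, edgeR), and 84.1 ± 5.26 and 93.6 ± 10.6 CPM in PC9 (0.18), where it did not pass. CDKN1A, which encodes the cell cycle inhibitor p21, fell in A549 from 792 ± 37.3 to 419 ± 42.9 CPM (-0.97, adjusted p = 4.63e-10) and rose in PC9 from 47.7 ± 3.28 to 71.8 ± 3.44 CPM (0.59, adjusted p = 7.79e-04, edgeR). With the correction PLAU in A549 was at -1.35 and CDKN1A in A549 at -1.23, where CDKN1A was then called. CDKN1A in PC9 was at 0.43 with the correction and still passed. Of 5 genes listed as partners of PBXIP1, 3 were in the table and 1 was tested, PIK3R1, named after its values were seen, which passed in neither line by edgeR or DESeq2, although its unadjusted p was under 0.05 in each.

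**Figure D5:**
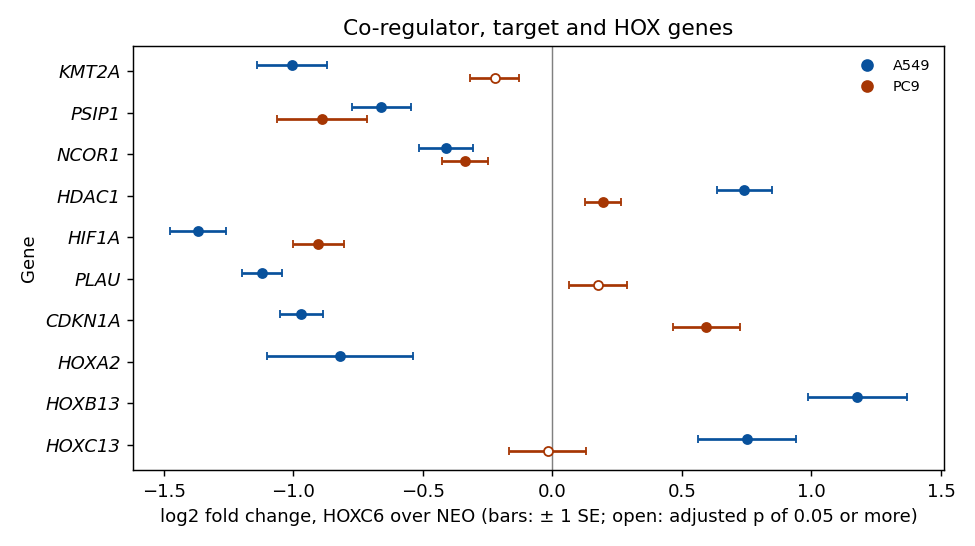
Log2 fold change of HOXC6 over NEO (horizontal axis) with bars of 1 SE for the named co-regulator, target and HOX genes in A549 (blue) and PC9 (brown). Filled points passed and open points did not, and a gene with 1 point was below the filter in PC9. PSIP1, NCOR1 and HIF1A lay below 0 in both lines, and CDKN1A lay on opposite sides.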

How the data were processed

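RNA-seq of A549 and PC9 cells with the HOXC6 or the empty vector was analysed, with 3 libraries per group and 12 in all. The deposited values are the authors' raw read counts per gene, without normalization or pooling. Per the labels and methods, poly(A) RNA libraries were made with a directional kit, reads were aligned to GRCh37.p13 with HISAT2 2.1.0 and assigned to genes with HTSeq 0.9.1 after bcl2fastq 2.19 (versions from the submitters' processing notes), and the authors tested differences with DESeq2. The strand setting of the counting and the annotation release are not given in the sources used here. Of the table, 12584 complete genes were used and 1 incomplete last line was left out. Normalization and adjustment cover these genes only.

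Groups were taken from the labels. Each comparison was fitted with edgeR 4.0.16 in R 4.3.3 (filterByExpr, TMM scaling, quasi-likelihood test, Benjamini-Hochberg adjustment over all genes tested): HOXC6 against NEO in each line, an interaction term for the difference in response over the 12 libraries, and A549-NEO against PC9-NEO. A gene passed at an adjusted p under 0.05 and was called if its log2 fold change was also above 1 or below -1. Levels are TMM-normalized CPM, divided by the length of the canonical transcript where genes are compared. The interval of the MEIS1 ratio and the floors of counts cover counting error only. The other intervals are of log2 values and use the SE of the edgeR fit, so they also cover the spread between libraries. That SE was derived from the log2 value and its F statistic. The floor was 3 counts and intervals are at 95%. The tests were checked on simulated counts.

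The 7 members and the gene lists were chosen with earlier results of these data known. Of each list of co-regulators, PBXIP1 partners and targets, the 2 genes with the largest change among those that passed in a line were named, with every HOX or other TALE gene that passed and the 3 genes most like each member tested in both lines (log2 CPM, prior count 2). IRX6, MKX, PKNOX2 and TGIF2, and the marker genes, were named to describe their lists after their values were seen, as were CCND1, CCND3 and CREBBP. Promoter sequences are from RefSeq (GRCh38.p14). Alternatives were DESeq2 1.42.0, RLE size factors, scaling by library totals, no filter, at least 10 counts in every library, a block for the replicate number, a correction for GC content and length (mgcv 1.9.3) with and without that block, and leaving out each library.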

Additional observations from a re-analysis of the deposited data

Results flagged for a closer look

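These genes are not members but were measured beside them, and each responded to HOXC6 differently in A549 and PC9 by the interaction test over 12 libraries (edgeR), where 19.4% of all genes tested did so. They had been named because they passed in a line of these same data, so that share is not a like background for them. The log2 fold change in A549 minus that in PC9 was -1.52 for CDKN1A (adjusted p = 4.31e-10) and -1.25 for PLAU (4.03e-09). It was -0.74 for KMT2A (0.00125) and 0.59 for HDAC1 (6.96e-04). For HOXC13 it was 0.81 (0.0141), and this difference no longer passed with DESeq2 (0.77, adjusted p = 0.0501) or without PC9-NEO replicate 3 (0.71, 0.0503). For HIF1A it was -0.42 (0.0396), and it no longer passed without any single one of 8 libraries, A549-NEO replicate 1, 2 or 3, A549-HOXC6 replicate 3, PC9-NEO replicate 1 or 3, or PC9-HOXC6 replicate 1 or 2, with values from -0.44 to -0.29. CCND1 (0.76, adjusted p = 3.31e-06), CCND3 (0.70, 2.03e-04) and CREBBP (0.60, 0.0042) were on the lists but not named by the rule, and also passed this test (edgeR). None of the 6 members tested passed it, and MEIS1 was below the filter. No group of 3 libraries was tested for outlying libraries.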

How the results depend on the processing

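For the members, 148 of 171 values under other settings and 147 of 168 with 1 library left out kept their direction and their side of the threshold. A value with no adjusted p, as for PBX4 in the difference between the lines with DESeq2, was counted by its direction only. PBX3, MEIS2 and MEIS3 between the NEO groups passed in every setting in which they were tested, as did PBXIP1 in A549. The number of members past the threshold in PC9 went from 2 to 0 with DESeq2, scaling by library totals, and the correction for GC content and length with and without the replicate block. With 1 library left out it was 0 to 2 in PC9 and 1 to 3 in A549. Members that changed sign had no call. PBX3 in PC9 was 0.037 with DESeq2, 0.0077 without a filter, 0.030 with the replicate block, 0.086 with the correction and 0.12 with both. PKNOX1 in A549 was 0.046 with the correction and 0.066 with the block as well. The difference between the lines for MEIS3 was -0.015 with DESeq2, -0.013 with RLE size factors, -0.0018 with the correction and -0.014 with the block as well. PBXIP1 between the NEO groups was -0.010 with library totals. With 1 library left out, PBX4 in A549 ran from -0.52 to 0.17, MEIS2 in A549 from -0.11 to 0.69, PKNOX1 in A549 from -0.18 to 0.011, PBX3 in PC9 from -0.35 to 0.34, HOXC13 in PC9 from -0.15 to 0.10, and the MEIS3 difference from -0.070 to 0.16. Over all genes, the 632 called in A549 became 419 with at least 10 counts in every library, 310 with the correction and 308 with the block as well, and 525 to 817 with 1 library left out. The 381 called in PC9 became 233, 187 and 187. The 475 called for the difference became 307 and the 3270 called between the NEO groups 2078 with at least 10 counts in every library, which leaves fewer genes to test. DESeq2 gave 1519 genes past the threshold in PC9 against 2316. The called genes split into 149 higher and 483 lower in A549 and 81 and 300 in PC9, and with the correction into 139 and 171, and 67 and 120. In PC9, 1123 of the genes that passed were higher and 1193 lower, against 752 and 1595 with library totals. Between the NEO groups that scaling moved the median log2 difference of all genes from 0.02 to -0.10. For the other changes the cause was not tested.

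Deviations of same-numbered libraries of the HOXC6 and NEO groups correlated weakly (-0.04, 0.01 and 0.06 in A549 and 0.02, -0.02 and 0.07 in PC9). With 3 libraries per group, such values cannot settle whether the numbers pair the samples. With the replicate block, 3532 genes passed in A549 and 2596 in PC9, members that passed stayed 3 and 2, and not every library correlated best with its own number. The low counts of PBX4, MEIS1, PKNOX1 and, in PC9, PBX3 limit what could be detected for them.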
